A study of Mus musculus with 2 samples.

Results

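Antisense noncoding RNAs are transcripts made from the strand opposite a gene, and 108 genes of this class were detected in the gastrocnemius, the main calf muscle, of newborn mice. The members are the genes that GENCODE M21 classes as antisense and that reached at least 1 TPM in both libraries, without the genes Kcnq1ot1, Airn and Tsix. TPM is a transcript level scaled for length and sequencing depth, so levels of different genes can be compared. Of 2959 annotated antisense genes 110 passed this minimum, Kcnq1ot1 and Airn among them, and of all 55536 annotated genes 13336 did. Because the members were chosen by their TPM, the number detected and their levels are descriptions and not tested results.

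Total RNA was sequenced from female B6CASTF1/J mice aged 4 days, first-generation hybrids of C57BL/6J and CAST/EiJ, with no treatment named. There was 1 group of 2 libraries, each from 300 ng of RNA, which the labels number as biological replicates 1 and 2 and as animals 3 and 4, although both carry the same donor record. No condition was contrasted, so no test between groups was possible, and the spread between the 2 libraries is the measure of error. Values below are given for replicate 1 first and replicate 2 second, or as mean ± SD (n = 2).

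An antisense RNA can share exon sequence with the gene it overlaps, start beside its promoter, or lie within one of its introns. Some act on their neighbour, as Nespas does in the imprinting of the Gnas locus, some are precursors of microRNAs, and for many no function is known. In skeletal muscle, antisense genes lie among the myosin heavy chain genes and in the Igf2 locus, and a muscle microRNA pair is made from a host transcript that runs against Mib1.

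The libraries held 30961087 and 36246031 expected counts (estimated reads, not always whole), of which ERCC spike-in RNAs took 215303 and 268427. All 6 skeletal muscle markers were detected, with summed levels of 35335 and 41849 TPM. None of the 4 neuron markers was detected (summed 0.68 and 0.59 TPM). The 4 red cell markers summed to 1230 and 230 TPM, the 4 bone markers to 30.9 and 1.0 TPM with 2 of them at 0 counts in replicate 2, the 4 tendon markers to 240 and 120 TPM, the 4 liver markers to 6.30 and 68.2 TPM, and the 4 keratinocyte markers to 6.99 and 8.43 TPM. The part of these other cell types in the antisense levels was not tested. In tissue RNA, fewer cells of a type and less RNA per cell cannot be told apart.

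Whether reads were counted by strand is not stated in the labels, headers or notes, which matters for genes that overlap on opposite strands. The labels name a spike-in profile for stranded libraries, and the deposited notes list separate plus and minus strand signal tracks, which were not analysed here. The tables allow a measurement, because each expected count carries a standard deviation that reflects how firmly its reads could be assigned. Among pairs of detected genes sharing at least 100 exon bases, this SD was exactly 0 for both genes in both libraries in 568 of 798 pairs on opposite strands (71.2%) and in 1 of 396 pairs on the same strand (0.253%). Of the 108 antisense genes 97 (89.8%) had an SD of 0 in both libraries, and so did 70 of the 79 that share exon bases with the gene they overlap (88.6%). The other 11, whose counts are less certain, were Dnm3os, Zeb2os, Tug1, Myhas, Zfhx2os, Tmem147os, 1110002L01Rik, Gm43079, Gm16008 and the histone-cluster pair Gm20632 and Gm20633.

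Another measurement comes from antisense genes that lie inside the exons of a strongly expressed gene. Reads of that gene could add to the antisense count if strand were ignored. Expected counts divide shared reads between genes by estimate, so low counts there do not settle how strand was handled. There were 11 annotated antisense genes with at least 80% of their exon bases inside exons of a gene at 50 TPM or more. Of these 9 had at most 5 counts in each library, and 3 of the 9 had 0 counts in both. Gm13938, 91.9% of it inside exons of the giant sarcomere gene Ttn, had 1 and 0 counts while Ttn stood at 1707 and 1903 TPM. Gm12999, wholly inside exons of the mitochondrial ATPase inhibitor gene Atpif1, had 5 counts in each library, which is 0.518% and 0.5% of the Atpif1 TPM. The 2 that were detected are Gm44732, against the imprinted cell-cycle inhibitor gene Cdkn1c, and Gm11175, against Jund, an AP-1 transcription factor gene. Gm44732 had 119 and 150 counts, 1.29% and 1.23% of the Cdkn1c TPM, and Gm11175 had 21 and 26 counts, 3.10% and 2.86% of the Jund TPM.

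The Gm44732 and Gm11175 transcripts are printed here because nearly all of their bases are the reverse complement of protein-coding sequence. Of the 635 nt of Gm44732, 625 (98.4%) lie in the Cdkn1c coding sequence, and all 408 nt of transcript Gm11175-202 lie in that of Jund. Each stretch is 60 nt, 5′ to 3′, from GENCODE M21 transcripts on mm10, with CpG dinucleotides in capitals, and each partner line is the same bases on the other strand.
Gm44732, plus strand, chr7:143459958-143460017: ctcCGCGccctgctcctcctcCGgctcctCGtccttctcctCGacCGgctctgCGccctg
Cdkn1c, minus strand, same bases: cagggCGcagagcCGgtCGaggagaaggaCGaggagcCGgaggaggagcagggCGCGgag
Gm11175, minus strand, chr8:70699299-70699358: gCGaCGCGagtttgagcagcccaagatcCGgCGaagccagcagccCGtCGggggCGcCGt
Jund, plus strand, same bases: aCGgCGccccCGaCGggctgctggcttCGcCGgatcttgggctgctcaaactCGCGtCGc
Both transcripts are rich in these bases, with 67.9% GC and 64 CpG in Gm44732 and 70.1% GC and 46 CpG in Gm11175-202. Gm44732 stood at 7.93 and 8.81 TPM in the gene tables but at 0.921 and 1.42 TPM in a separate quantification that the authors also deposited, so its level rests on the quantification used.

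**Figure D1:**
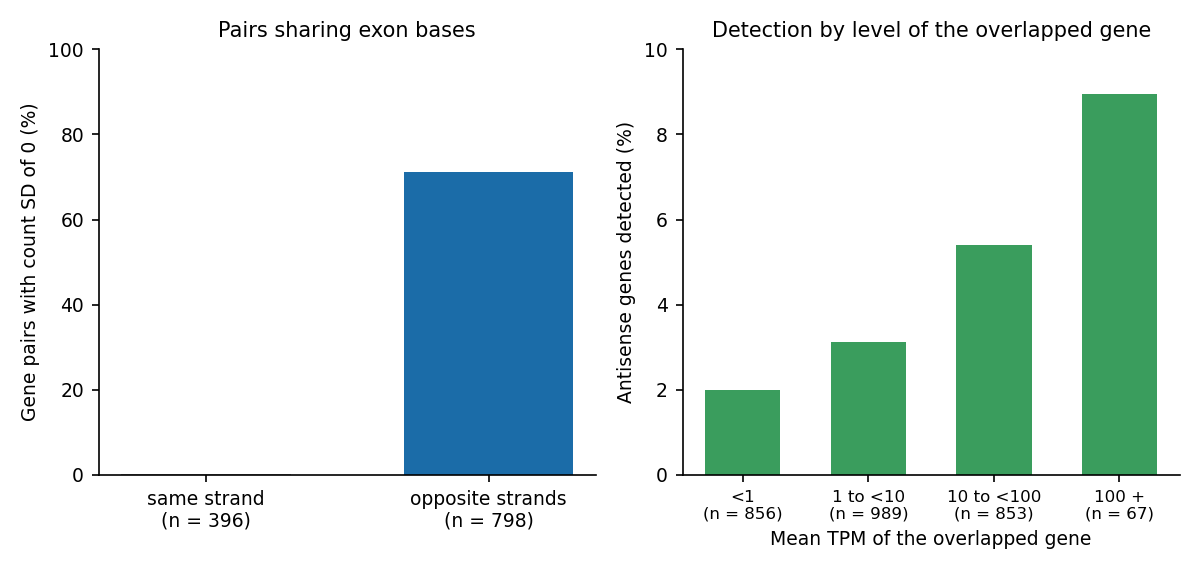
Left, percent of pairs of detected genes sharing at least 100 exon bases whose expected counts have an SD of 0 for both genes in both libraries, by strand (0.253% of same-strand and 71.2% of opposite-strand pairs). Right, percent of annotated antisense genes that were detected, by the mean TPM of the gene they overlap (the coding gene of longest overlap where there is one), from 1.99% under 1 TPM to 8.96% at 100 TPM or more. The numbers of pairs or genes stand under the bars.

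The class as a whole was weakly expressed. The 108 genes summed to 443 and 452 TPM, or 0.0443% and 0.0452% of each library, and to 20602 and 22809 expected counts. Their median was 1.98 TPM in replicate 1 and 1.86 TPM in replicate 2. By mean level, 57 were under 2 TPM, 32 between 2 and 5 TPM and 14 between 5 and 10 TPM, and 5 reached 10 TPM in both libraries. Mean counts ran from 14.5 upwards with a median of 76.2, and 43 genes averaged 100 counts or more. Antisense genes passed the minimum at 3.72%, long intergenic noncoding (lincRNA) genes at 2.72% (159 of 5854) and protein-coding genes at 54.8% (12064 of 22028). The detected antisense genes, Kcnq1ot1 and Airn included, had a median of 2062 exon bases against 892 for the undetected ones, with a median of 3 exons at most per transcript in each.

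At the minimum itself, the level sets membership. Just inside stood Gm10687 (1.00 and 1.38 TPM), Gm28529 (1.00 and 1.16 TPM) and Gm10602 (1.01 in each library). Just outside stood Gm15952 (1.33 and 0.99 TPM), the antisense-classed locus Trmt61b (1.15 and 0.99 TPM) and B230369F24Rik (1.2 and 0.99 TPM). Genes on either side of the minimum were not separated by more than their spread between libraries.

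**Figure D2:**
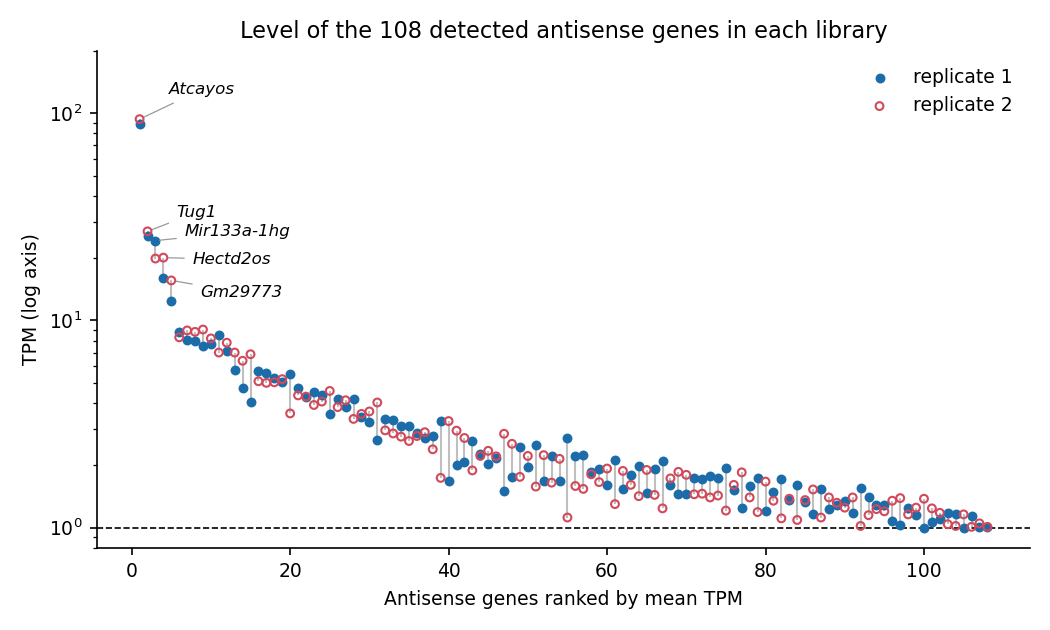
TPM (log axis) of the 108 detected antisense genes in replicate 1 (filled) and replicate 2 (open), ranked by mean TPM, with a grey line joining the libraries and a dashed line at 1 TPM. Atcayos stands alone at 88.84 and 93.55 TPM, and 57 genes lie under a mean of 2 TPM.

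A single gene, Atcayos, held 20.04% and 20.69% of the summed antisense TPM, and the 4 highest genes together held 34.9% and 35.5%. Atcayos (chr10:81194609-81210877, plus strand) had 4400 and 5235 counts, or 88.84 and 93.55 TPM (91.2 ± 3.33). It overlaps the 3′ part of Atcay, the gene of the neuronal protein caytaxin, and shares 432 exon bases with it. Atcay was listed at 0.08 and 0.03 TPM. Atcayos also runs across the whole of Nmrk2, a nicotinamide riboside kinase gene known from muscle, with 270 shared exon bases, and Nmrk2 stood at 0.51 and 0.59 TPM. The most abundant antisense RNA of this muscle thus lay opposite genes that were themselves under 1 TPM in both libraries.

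Tug1, a conserved long noncoding RNA expressed in many tissues (chr11:3639785-3649673, minus strand), came next with 25.46 and 26.90 TPM from 2952 and 3301 counts. It starts head-to-head with Morc2a, a chromatin ATPase gene, shares 483 exon bases with it and was 1.87 and 2.17 times as high (Morc2a at 13.65 and 12.38 TPM). The Mir133a-1 host gene, Mir133a-1hg, stood at 24.26 and 19.89 TPM (22.1 ± 3.09) from 201 and 187 counts on a 395 nt transcript. It lies on chromosome 18 within an intron of Mib1, a ubiquitin ligase gene of the Notch pathway at 25.73 and 23.69 TPM, and shares no exon base with it. These levels lie close together in the gene tables (log2 ratio −0.17 ± 0.12) and apart in the other quantification (−1.19). The microRNA genes Mir133a-1 and Mir1a-2, which lie inside the host gene, had 0 counts of their own in both libraries.

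Hectd2os (chr19:36614052-36705641, minus strand) stood at 15.97 and 20.09 TPM. It overlaps the 3′ part of the ubiquitin ligase gene Hectd2 and shares 1834 exon bases, 46.1% of its own. Hectd2 stood at 2.65 and 2.41 TPM, so the antisense gene was 6.03 and 8.34 times as high, the highest ratio among pairs whose overlapped gene was detected. Gm29773 (12.45 and 15.60 TPM) runs against the end of the nucleoporin gene Nup133 (8.25 and 7.62 TPM). Mir133a-1hg and Hectd2os, neighbours in this order, traded places in replicate 2 (19.89 and 20.09 TPM) and did not differ beyond their spread, while Atcayos and Tug1 stood first and second in both libraries.

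Of the 12 genes of highest mean level, the others lay between 7.0 and 9.04 TPM in both libraries of the gene tables. They were Gm26782 (8.75 and 8.29 TPM) beside the telomerase-associated gene Tep1, Sp3os (8.08 and 8.95 TPM), Gm44732, E130307A14Rik (7.55 and 9.04 TPM) against the IL-17 receptor adaptor gene Traf3ip2, Brip1os (7.73 and 8.19 TPM), Dnm3os (8.47 and 7.0 TPM) and Gm15417 (7.14 and 7.81 TPM) beside the transcription factor gene Zbtb7b. The values of neighbours in their order overlapped. Some genes further apart kept their order in both libraries, among them Gm26782 above Brip1os and Gm15417. The order is that of the gene tables. In the other quantification Gm26782, at 26.6 and 26.4 TPM, stood above Mir133a-1hg, at 17.8 and 15.8 TPM.

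Dnm3os (chr1:162217623-162225550, plus strand) lies within an intron of the dynamin gene Dnm3 on the opposite strand and is the precursor of the microRNAs of Mir199a-2 and Mir214. It had 1720 and 1394 counts and was 2.57 and 2.88 times as high as Dnm3 (3.30 and 2.43 TPM). The Mir199a-2 gene, in a Dnm3os exon, was given 3.75 and 0 counts, and Mir214 had 0 in both libraries. The mature sequences (RefSeq, GRCm38.p6) are shown with the seed, bases 2 to 8, in capitals, because these are the short products for which this antisense RNA is known. Mature microRNAs were not measured here.
mmu-miR-199a-5p: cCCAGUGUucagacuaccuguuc
mmu-miR-199a-3p: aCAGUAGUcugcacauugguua
mmu-miR-214-5p: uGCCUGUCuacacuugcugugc
mmu-miR-214-3p: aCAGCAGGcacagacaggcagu
No seed is shared among these 4 products. Other small RNA genes inside members were likewise near 0: the small nucleolar RNA gene Snord60, in an exon of Rab26os, had 0 counts in both libraries, and the predicted microRNA genes inside Gm20632 and Gm20633 had at most 0.23.

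Of the 108 genes 100 overlapped a gene on the other strand, and 8 did not in the annotation used. All 100 overlapped a protein-coding gene, and the coding gene of longest overlap is called the partner below (99 genes, since Usp54 is the partner of both 2810402E24Rik and 1810062O18Rik). An overlap with several genes was found for 37 members and with 1 gene for 63. Shared exon bases were found for 79, with a median of 18.5% of the antisense exon bases, and the other 21 shared none with the partner. Counting every gene overlapped on the other strand, 85 members shared exon bases with at least 1.

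Antisense levels were mostly below those of the partner. The partners had a median of 12.3 TPM, and the median log2 ratio of antisense to partner (0.1 TPM added to each) was −2.09 in replicate 1 and −2.03 in replicate 2. The antisense gene was lower in both libraries in 72 pairs, higher in both in 25 and on different sides in 3 (Gm15417 with Zbtb7b, Gm15635 with Slco2b1, and Zfhx2os with Zfhx2). It stood under 10% of the partner in both libraries in 30 pairs. Across the 100 pairs, log2 levels of antisense and partner had a Pearson r of −0.11 and a Spearman rho of −0.10. This describes pairs of genes that share libraries and were selected on the antisense level, so it carries no test.

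**Figure D3:**
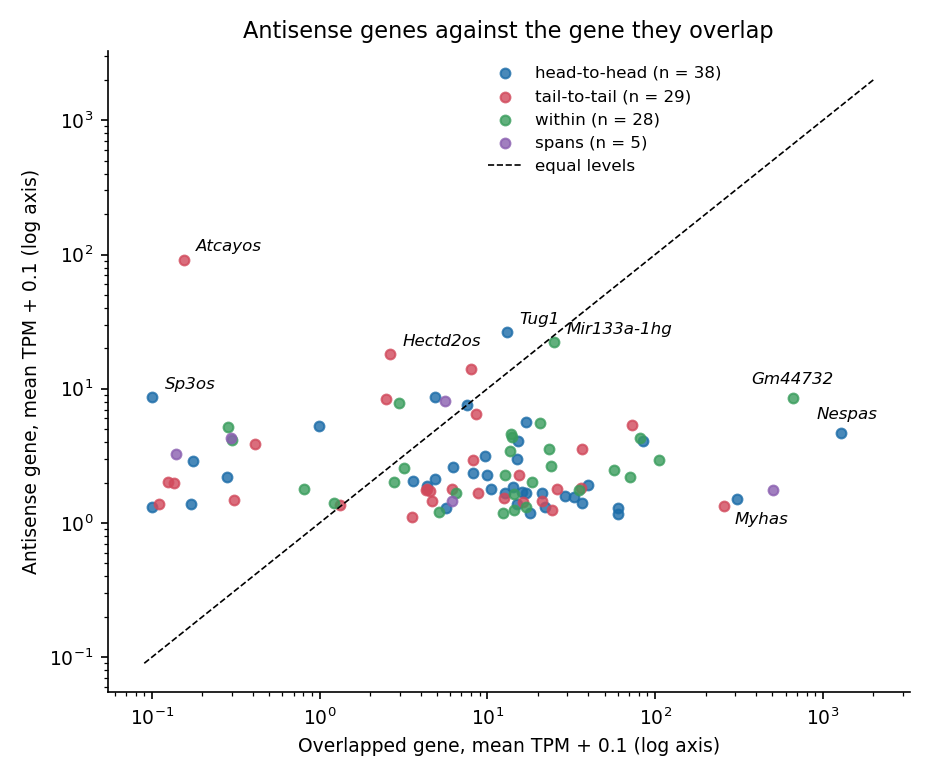
Mean TPM + 0.1 of each antisense gene (vertical, log axis) against that of its partner (horizontal, log axis) for the 100 overlapping pairs, coloured by arrangement, with a dashed line of equal levels. Atcayos and Sp3os stand far above the line beside partners near 0, and Nespas, Myhas and Gm44732 far below it.

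By the partner of longest overlap the pairs fall into 4 arrangements, and a member can lie differently to another gene it overlaps. In 38 head-to-head pairs the 5′ ends overlap, over a median of 716 nt, and 33 share exon bases. The antisense median there was 1.81 TPM and the partner median 13.6 TPM, with 8 antisense genes above the partner. In 29 tail-to-tail pairs the 3′ ends overlap, the partner median was lower at 6.03 TPM, and 9 antisense genes were above the partner. Some of these members also overlap another coding gene head-to-head. That gene was higher than the partner for Gm17690 (Sf3b4) and lower for Gm15491 (Npm3), so these values rest on the choice of partner. In 28 pairs the antisense gene lies within the partner, with medians of 2.44 and 14.2 TPM and 5 above the partner, and in 5 pairs it spans the partner, with 3 above. Median log2 ratios were −2.22 and −2.25 head-to-head, −1.51 and −1.57 tail-to-tail, −2.51 and −2.24 within, and 0.53 in both libraries for the spanning pairs. How far these medians differ between arrangements was not tested.

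The share of antisense genes detected was read against the level of the overlapped gene. All annotated antisense genes with a partner (where no coding gene overlapped, the longest-overlapping gene of another class) were placed by the mean TPM of that partner. Of those opposite a gene under 1 TPM, 17 of 856 were detected (1.99%). The share was 31 of 989 (3.13%) at 1 to 10 TPM, 46 of 853 (5.39%) at 10 to 100 TPM and 6 of 67 (8.96%) at 100 TPM or more. The median antisense count was 0 in both libraries in the first 3 bins and 1 in the last. Detection is the rule that chose the members, the last bin holds few genes, and the difference between bins was not tested.

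Of the 25 antisense genes above their partner, 17 had a partner under 1 TPM in at least 1 library and 8 exceeded a detected partner. These 8 were Hectd2os, E130307A14Rik (2.96 and 4.02 times Traf3ip2, at 2.55 and 2.25 TPM), Dnm3os, Tug1, Gm26782 (1.83 and 1.76 times Tep1, at 4.78 and 4.70 TPM), Gm29773 (1.51 and 2.05 times Nup133), Brip1os (1.46 and 1.45 times the Integrator gene Ints2, at 5.31 and 5.65 TPM) and A730035I17Rik, whose 1.23 and 1.40 TPM stood against 1.02 and 1.21 TPM for Prdm8. The Prdm8 difference was close to the spread between the libraries. In the other quantification the log2 ratio of Gm26782 to Tep1 rose from 0.83 to 2.25 and that of E130307A14Rik to Traf3ip2 from 1.74 to 2.45, while that of Hectd2os to Hectd2 fell from 2.78 to 2.17.

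Which overlapped gene is taken as partner decides some of these. In 14 members another overlapped gene was higher than the partner of longest overlap, and 7 of these stood above the partner and not above that gene. Sp3os was set against the predicted gene Gm11084, with 0 counts, but it also starts head-to-head with the transcription factor gene Sp3 (26.12 and 24.64 TPM, 109 shared exon bases). Brip1os lies above Ints2 but below the Mediator gene Med13 (19.61 and 18.43 TPM, 800 shared exon bases). The same held for 9530082P21Rik with Flywch1, 4933431E20Rik with Gstm5, 1810021B22Rik with Trabd, and for the Igf2 and Hoxd loci described next.

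Igf2os, the antisense RNA of the imprinted growth factor gene Igf2 (chr7:142659693-142670356, plus strand), had 626 and 683 counts and stood at 5.25 and 5.03 TPM (5.14 ± 0.156). Igf2 itself stood at 4480 and 5621 TPM, 98 exon bases being shared. The partner of longest overlap was Gm49394, a predicted coding gene that covers most of Igf2, at 0.94 and 0.85 TPM. Nespas (chr2:174281237-174295436, minus strand), antisense to the complex imprinted locus of the G protein subunit gene Gnas, had 246 and 183 counts and stood at 5.54 and 3.56 TPM. Gnas stood at 1235 and 1341 TPM, so Nespas was 0.357% ± 0.129 of it. This Gnas level is that of the whole gene, while Nespas overlaps 11117 nt at its 5′ end, with 988 shared exon bases. Gm44732 lies in Cdkn1c, the third imprinted gene of this set, which stood at 617 and 716 TPM. Alleles were not separated here.

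Myhas (chr11:67211256-67237573, minus strand) was the member found opposite a gene of the contractile list. It overlaps the 3′ part of Myh1, the fast IIX myosin heavy chain gene, and shares 515 exon bases, 25.4% of its own. It was low, with 28.9 and 30.0 counts, 1.29 and 1.2 TPM, against 251 and 264 TPM for Myh1 (0.484% ± 0.0423). Of 56 contractile and sarcomere genes 14 have an annotated antisense gene, and 1 detected antisense gene was found among them. Over all annotated antisense genes 3.72% were detected, a share that counts antisense genes and not overlapped genes. Few or no members are thus near the background in lists of this size. Of 33 genes of excitation-contraction coupling and the junction 6 have one, of 49 metabolic and mitochondrial genes 4, and of 45 genes of RNA binding and chromatin 11, with no member in any of these 3 lists.

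Among 75 transcription factor genes of muscle and limb 16 had an annotated antisense gene and 5 a detected one. One of the 5, Hoxd8, is overlapped by Hoxd3os1 but is not its partner of longest overlap. The share detected over all annotated antisense genes was 3.72%, which counts antisense genes and not overlapped genes. It was 3.13% opposite partners at 1 to 10 TPM and 5.39% at 10 to 100 TPM. This list was chosen with earlier results of these data known, and its difference from that share was not tested. 2810468N07Rik, head-to-head with Sox8, stood at 3.30 and 2.85 TPM (Sox8 at 8.85 and 10.40 TPM). Hoxd3os1 crosses the Hoxd cluster and stood at 2.71 and 2.89 TPM. Of the patterning genes it overlaps, Hoxd3 was at 0.05 and 0.10 TPM, Hoxd4 at 2.95 and 1.60 TPM and Hoxd8 at 12.26 and 13.85 TPM, so it was above the first and below the last in both libraries. Tbx3os1 stood at 3.28 and 1.74 TPM beside the limb gene Tbx3 at 6.70 and 5.59 TPM, with counts of 62 and 49. Zeb2os was at 2.08 and 2.71 TPM within the mesenchymal repressor gene Zeb2 (54.16 and 60.18 TPM), and Sox6os at 1.45 and 1.86 TPM, from 13 and 19 counts, within Sox6 (34.37 and 35.66 TPM), which encodes a repressor of slow-fibre genes. In the list of 52 matrix and growth factor genes 16 had an annotated antisense gene, and Igf2os was the only member.

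A list of antisense RNAs known from the literature held 23 genes that GENCODE M21 classes as antisense, of which 8 were members. Kcnq1ot1, Airn and Tsix could not be members, because the rule leaves them out. The share detected over all annotated antisense genes was 3.72%, and the difference from it was not tested. Besides Tug1, Mir133a-1hg, Igf2os, Nespas, Myhas and Hoxd3os1 the 8 members were Rab26os (5.04 and 5.21 TPM from 30 and 35 counts, with the small GTPase gene Rab26 at 0.17 and 0.20 TPM) and Hotairm1 (2.45 and 1.76 TPM from 17 and 14 counts). The log2 ratio of Rab26os to Rab26 was 4.2 here and 1.90 in the other quantification. Hotairm1 stood there at 1.45 and 0.995 TPM, under the minimum in replicate 2. Hoxaas3 was just outside with 1.35 and 0.97 TPM. Hoxb3os (0.43 and 0.21 TPM) and Emx2os (0.24 and 0.15 TPM) were lower, and Hoxb5os, Dlx1as, Pax6os1, Uchl1os and Evx1os had 0 counts in both libraries.

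The lowest ratios to a partner lay opposite highly expressed genes, which follows largely from the ratio itself, since most members were low. Beside Nespas, Myhas and Gm44732 these were H3f3aos (1.71 and 1.11 TPM), head-to-head with the histone H3.3 gene H3f3a (306 and 307 TPM), and Gm20632 (2.10 and 1.24 TPM), which spans the histone H2A gene Hist2h2aa2 (496 and 512 TPM). The Gm20632 ratio depended on the quantification: its log2 value was −8.20 in the gene tables and 4.73 in the other quantification, where Hist2h2aa2 was listed at 0. The nearby H2A gene Hist2h2aa1, partner of Gm20633, went the other way. It stood at 7.36 and 4.74 TPM in the gene tables and at 1163 and 1133 TPM in the other quantification. The ratio of Gm20632 thus rests on which H2A gene was given the level, and the cause was not tested. Other low pairs, named after their values were seen, were Rab10os at 5.56 and 5.0 TPM against the GTPase gene Rab10 (69.36 and 75.74 TPM) and Gm11266 at 4.36 and 4.06 TPM within the transcription factor gene Nfib (83.07 and 78.91 TPM). Closer to its partner was 6330403L08Rik, with 583 and 710 counts, which shares 813 exon bases with the growth factor gene Pdgfa and stood at 3.84 and 4.12 TPM against 15.22 and 15.16 TPM.

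The 8 members without an overlap in the annotation lay beside a gene on the other strand, pointing away from it. The gap between the start sites was 15 nt for 2810001G20Rik and Cox10, 65 nt for Gm12963 and Col16a1 and for Gm11423 and Lig3, 128 nt for Gm4285 and Tpt1, 157 nt for 2610016A17Rik and Dmrt2, and 172 nt for Gm13375 and Arhgap21. It was 4000 nt for Foxo6os and Foxo6 and 35311 nt for Gm43079 and Ccdc144b. These members stood between 1.01 and 5.68 TPM. Their neighbours ranged widely, from Ccdc144b at 0 and 0.02 TPM to the abundant gene Tpt1, which encodes translationally controlled tumour protein, at 1423 and 1509 TPM, where Gm4285 stood at 1.56 and 1.02 TPM.

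The gaps of 5 such pairs are printed because they are the whole sequence between a coding start and an antisense start. Each is read from RefSeq promoter windows on GRCm38.p6, 5′ to 3′ on the antisense gene's strand, with CpG dinucleotides in capitals.
2810001G20Rik to Cox10, plus strand, chr11:64079469-64079483: gtgaggCGggacttc
Gm11423 to Lig3, minus strand, chr11:82781043-82781107: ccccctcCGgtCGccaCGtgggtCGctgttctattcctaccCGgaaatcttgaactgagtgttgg
Gm12963 to Col16a1, minus strand, chr4:130047775-130047839: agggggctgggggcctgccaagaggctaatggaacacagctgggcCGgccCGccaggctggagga
Gm4285 to Tpt1, minus strand, chr14:75844965-75845092: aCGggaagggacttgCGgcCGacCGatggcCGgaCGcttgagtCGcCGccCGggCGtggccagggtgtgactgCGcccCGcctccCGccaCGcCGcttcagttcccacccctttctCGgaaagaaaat
2610016A17Rik to Dmrt2, minus strand, chr19:25672254-25672410: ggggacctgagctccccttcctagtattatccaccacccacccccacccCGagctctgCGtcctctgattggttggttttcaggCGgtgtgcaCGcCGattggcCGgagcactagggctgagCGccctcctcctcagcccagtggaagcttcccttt
The gap beside Tpt1 holds 16 CpG and is 68.8% GC, that beside Lig3 holds 5 CpG, that beside Dmrt2 holds 7, that beside Col16a1 holds 2 and that beside Cox10 holds 1.

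The dinucleotide CG, which reads the same on both strands, was counted in 300 nt around the start (250 before, 50 after) for the 60 of 108 members with a RefSeq promoter window. The median was 18, and 40 of the 60 (66.7%) held at least 10. That share was 84.1% for detected and 59.2% for all protein-coding genes, and 60.3% for detected and 15.8% for all lincRNA genes with a window. By arrangement with the partner it was 77.3% of 22 head-to-head members and 72.2% of 18 tail-to-tail members. It was 38.5% of 13 members within their partner and 83.3% of 6 members without overlap. Some members classed as tail-to-tail also overlap another coding gene head-to-head, among them 1810021B22Rik with Trabd, E530011L22Rik with Zfp651 and 1110002L01Rik with Asxl2. A head-to-head member's window can include the partner's own start region. The same holds for the other gene where a tail-to-tail member starts beside one. For members without overlap but with a short gap, the window can include the neighbour's start region. These shares are descriptions of windows and were not tested.

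Most members have several annotated transcripts. For the 73 with more than 1, the leading transcript took a median of 61.6% of the gene's TPM and was the same in both libraries in 61. Igf2os-203 led with 90.4% of Igf2os, Brip1os-201 with 98.1% of Brip1os and Dnm3os-202 with 76.1% of Dnm3os, while the leading Tug1 transcript, Tug1-203, took 34.3%. There were 19 members with single-exon transcripts only. By chromosome, chromosome 7 held the most members, 13 of its 213 antisense genes (6.10%), while chromosome 13 held none of 141 and the X chromosome none of 45. The share detected over all annotated antisense genes was 3.72%, and differences between chromosomes were not tested.

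Differences between the libraries were small for most members. Log2 ratios of replicate 2 over replicate 1 came from expected counts scaled by edgeR's trimmed mean of M values. None of the 43 members with a mean of at least 100 counts was over 2-fold apart, where 0.718% of all genes at that minimum were (88 of 12256) and 0.514% of those that also reached 1 TPM in both libraries (62 of 12057). The members had to reach 1 TPM in both, so the second share is the like one, and nothing particular to the members is read from these counts. Their median log2 ratio was −0.05 (quartiles −0.21 and 0.09), and that of all genes was 0.02. At a mean of at least 10 counts, 1 of 108 members was over 2-fold apart, Gm15265 with 52 and 24 counts (log2 ratio −1.22). At that minimum 3.75% of all genes were, and 0.746% of those detected in both libraries (99 of 13265), so the members' share was near the background. Scaled to spike-ins, the median of all genes moved to −0.12 and that of the members to −0.19.

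Of the members averaging 100 counts or more, the lowest log2 ratios were those of Gm20632 (−0.74) and Nespas (−0.60), and the highest those of Gm10687 (0.45) and Uckl1os (0.44). Gnas, opposite Nespas, had a ratio of 0.12. Uckl1os, with 187 and 288 counts, runs head-to-head with the nucleoside kinase gene Uckl1 (0.13), and Gm10687, with 88 and 137 counts, begins beside the cell adhesion gene Mcam (0.07). Dnm3os (−0.48) and Dnm3 (−0.53) were lower together in replicate 2. Over the 37 pairs in which both genes had at least 100 counts, the log2 ratios of antisense and partner had a Pearson r of 0.10 and a Spearman rho of 0.09, given as a description across gene pairs of the same 2 libraries. With 1 library on each side these differences carry no test, and red cell, bone, tendon and liver markers differed between the same libraries as given above.

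**Figure D4:**
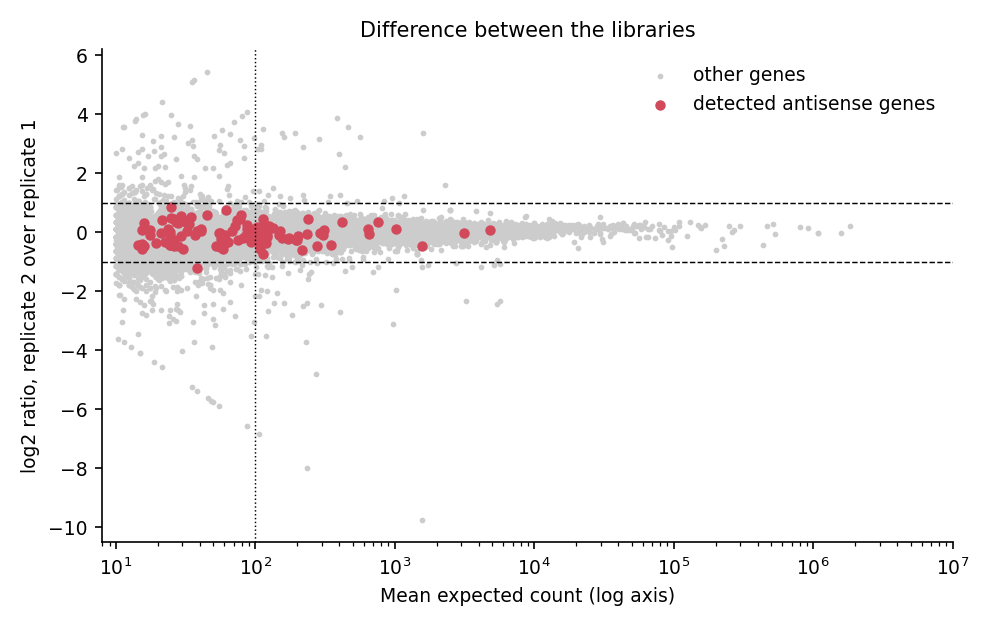
Log2 ratio of replicate 2 over replicate 1 (vertical) against mean expected count (horizontal, log axis) for the 108 antisense genes (red) and all other genes averaging 10 counts or more (grey), with dashed lines at 2-fold and a dotted line at 100 counts. Right of the dotted line every antisense gene lies between the dashed lines.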

How the data were processed

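The authors deposited, for each library, gene and transcript tables with expected (estimated) counts, TPM and, per transcript, the percent of the gene's TPM, and another transcript table from a separate quantification with estimated counts and TPM. Per the file headers and deposited notes, these rest on the mm10 build and GENCODE M21. Neither the aligner nor the quantification programs nor the strand setting were given in the sources used here. Both parental alleles were counted together against mm10.

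Biotype, symbol and coordinates were joined by gene ID. The partner was the opposite-strand protein-coding gene of longest overlap or, where none overlapped, the longest-overlapping gene of any class. Expected counts were rounded and scaled with edgeR 4.0.16 in R 4.3.3 (prior count 2), a step tested on simulated data. DESeq2 1.42.0 size factors, library size and spike-ins were alternatives, as were other minimums, pseudocounts, partner choices and the other quantification, summed per gene. The rest used Python 3.11.15 with pandas 2.3.3 and matplotlib 3.10.9.

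The members and lists were chosen with earlier results of these data known. Named were the 12 members of highest mean TPM, the 8 highest and 5 lowest ratios to a partner of at least 1 TPM, up to 4 members a list, the known antisense RNAs, the 2 highest and 2 lowest ratios between libraries, and 3 genes on each side of the TPM minimum. Members named for sharing reads, an embedded position, another partner, a chromosome neighbour or the same side in only 1 library, and Sox6os, Gm15265, Rab10os, Gm11266 and 6330403L08Rik, were chosen after their values were seen. The partner of 1 named member is not reported here.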

Additional observations from a re-analysis of the deposited data

How the results depend on the processing

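The number of detected antisense genes followed the minimum and the quantification: 108 became 207 at 0.5 TPM, 43 at 2 TPM and 244 in the other quantification. Of the 108 members 102 reached 1 TPM in both libraries in that quantification. Levels there were higher in general (median 1.83-fold for the members and 1.74-fold for all detected genes). Requiring at least 0.5 of the antisense gene to overlap left 51 of 100. The median log2 ratio to the partner of −2.06 became −2.56 with the overlapped gene of highest TPM, −1.64 with a pseudocount of 1 and −3.31 from expected counts, and it stayed negative in all of these. The number of members above their partner, 25, stayed within 1.5 times under every alternative run. Lowering the count minimum to 10 raised the members over 2-fold apart from 0 to 1. Of 28 named ratios, 22 moved by more than 1 SD in the other quantification, 5 did not, and Gm20632 to Hist2h2aa2 turned from −8.20 to 4.73. Leaving out either library kept the detected count, the median ratio and the count above the partner within these margins. No paired analysis was possible because the series has 1 group. Counts under 100 for most members limit the precision of single genes.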
